A study of Mus musculus with 40 samples.

Results

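The genes described here encode the nuclear subunits of oxidative phosphorylation, chosen by gene symbol alone: NADH dehydrogenase subunits (Nduf), succinate dehydrogenase subunits (Sdh), subunits of the cytochrome bc1 complex (Uqcr), cytochrome c oxidase subunits (Cox4 to Cox8) and ATP synthase subunits (Atp5). Of 19505 named genes on the array, 84 matched, each through a single row. They were sorted into the 5 complexes: 35 genes in complex I, 4 in complex II, 8 in complex III, 20 in complex IV and 17 in complex V, with Ndufa4 and its paralogue Ndufa4l2 placed in complex IV. After dim genes were left out, 82 were tested. The remaining pair, Cox8b and Ndufa4l2, had region means of 3.67 to 3.98 and 3.58 to 3.85 on the log2 scale.

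RNA came from 5 brain regions (amygdala, cerebellum, hippocampus, prefrontal cortex and striatum) of mice 8 to 10 weeks old on a background that the labels spell C56BL/6, kept at 22 °C on chow. The mice carried Dio2, the gene of the type 2 deiodinase that activates thyroid hormone, with threonine (labelled Thr92D2HY) or alanine (Ala92D2HY) at residue 92. There were 4 arrays for each of the 10 groups (region by genotype), 40 altogether, and the values are log2 intensities after robust multi-array averaging (RMA) by the authors. The labels tie no array to an animal, give neither sex nor batch, and call the striatum arrays "Striatum Cortex" in a description. The spread behind every p-value is therefore that between arrays, which may be technical, and their number limits the precision.

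Oxidative phosphorylation takes place in the inner mitochondrial membrane. Complexes I and II pass electrons from NADH and succinate to ubiquinone, complex III passes them on to cytochrome c, and complex IV passes them to oxygen. Complexes I, III and IV pump protons, and complex V uses the gradient to make ATP, on which neurons depend for ion pumping and synaptic transmission. Several complex IV subunits exist as pairs of isoforms encoded by separate genes, of which one is widely expressed and the other is best known from heart and skeletal muscle, lung or testis. The mitochondrial genome encodes further core subunits, which were not analysed here.

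The regions matched their labels by defining markers. All 6 granule cell markers tested were higher in cerebellum, with a median log2 difference of 9.82 from the other regions, and all 7 medium spiny neuron markers were higher in striatum, with a median of 7.70. Glial and neuronal markers also differed between regions. The 9 oligodendrocyte markers tested had a median difference of -2.19 in amygdala and 2.41 in striatum, all 9 past the threshold in each, and 8 of 10 pan-neuronal markers were lower in striatum. In such bulk RNA, fewer cells of a type and less RNA per cell cannot be told apart. In 10 arrays the marker score of choroid plexus, thalamus, liver or medium spiny neurons lay more than 1 log2 unit above the mean of the region. The Ala arrays were amygdala 1 and 2, cerebellum 9, hippocampus 17 and striatum 33 and 36. The Thr arrays were cerebellum 16, hippocampus 23 and 24 and striatum 40. The counts of calls in amygdala and striatum are also given without these arrays. Calls of single subunits lost without them are counted in the last section, and not all are marked where they are described.

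Most subunits were bright and varied little. Negative-control rows had array medians of 5.73 to 6.35, and the brightest subunit reached 18.43. Group means of 72 subunits stayed above that range, those of 5 (Atp5k, Cox4i2, Cox6b2, Cox8b and Ndufa4l2) stayed below it in all groups, and 7 (Cox6a2, Cox7a1, Cox7b2, Cox8c, Ndufa7, Ndufb10 and Ndufv3) lay partly within or below it. Differences of these 12 rest on dim signal. Levels of different genes were not compared, since each has its own probes.

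Each region, with both genotypes together (8 arrays), was compared with the mean of the other 4 regions in a limma model across all 14978 genes, and genes with an adjusted p under 0.05 (Benjamini-Hochberg over all genes) were called. A log2 difference of 1 is a change by a factor of 2. The 5 comparisons share arrays, since each region is part of the reference of the other 4. In total, 48 of 82 subunits (58.5%) were called in at least 1 region, against 74.0% of all genes tested, and 34 in none.

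Among the subunits called, nearly all were lower in amygdala and higher in striatum and prefrontal cortex, while cerebellum had both and hippocampus almost none. In amygdala 18 of 82 were lower (22.0%, against 17.3% of all genes tested) and 1 was higher (1.22%, against 15.3%), and the median subunit difference was -0.18 with 70 of 82 below 0. In striatum 22 were higher (26.8%, against 20.8%) and 3 lower (3.66%, against 23.2%), with a median of 0.10. In prefrontal cortex 10 were higher (12.2%, near the 12.7% of all genes) and 1 was lower (1.22%, against 13.1%), with a median of 0.12 and 70 of 82 above 0. In cerebellum 14 were higher (17.1%, against 29.4%) and 18 lower (22.0%, against 28.1%), with a median of -0.04, which became 0.02 when each array's median was set to 0. In hippocampus 1 was higher and 1 lower (1.22% each, against 13.8% and 14.1%). The prefrontal count was 6 without Thr prefrontal cortex 30 and 19 without Thr prefrontal cortex 32 or Thr striatum 37. The striatal calls were 12 higher and 6 lower without Thr striatum 37, 13 higher and 4 lower without Ala striatum 33, and 15 higher and 1 lower without Ala striatum 36. Shares of all genes called without these arrays are not given, so the changes need not be particular to the subunits. The medians of all genes tested lay between -0.03 and 0.00 in the 5 comparisons.

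**Figure D1:**
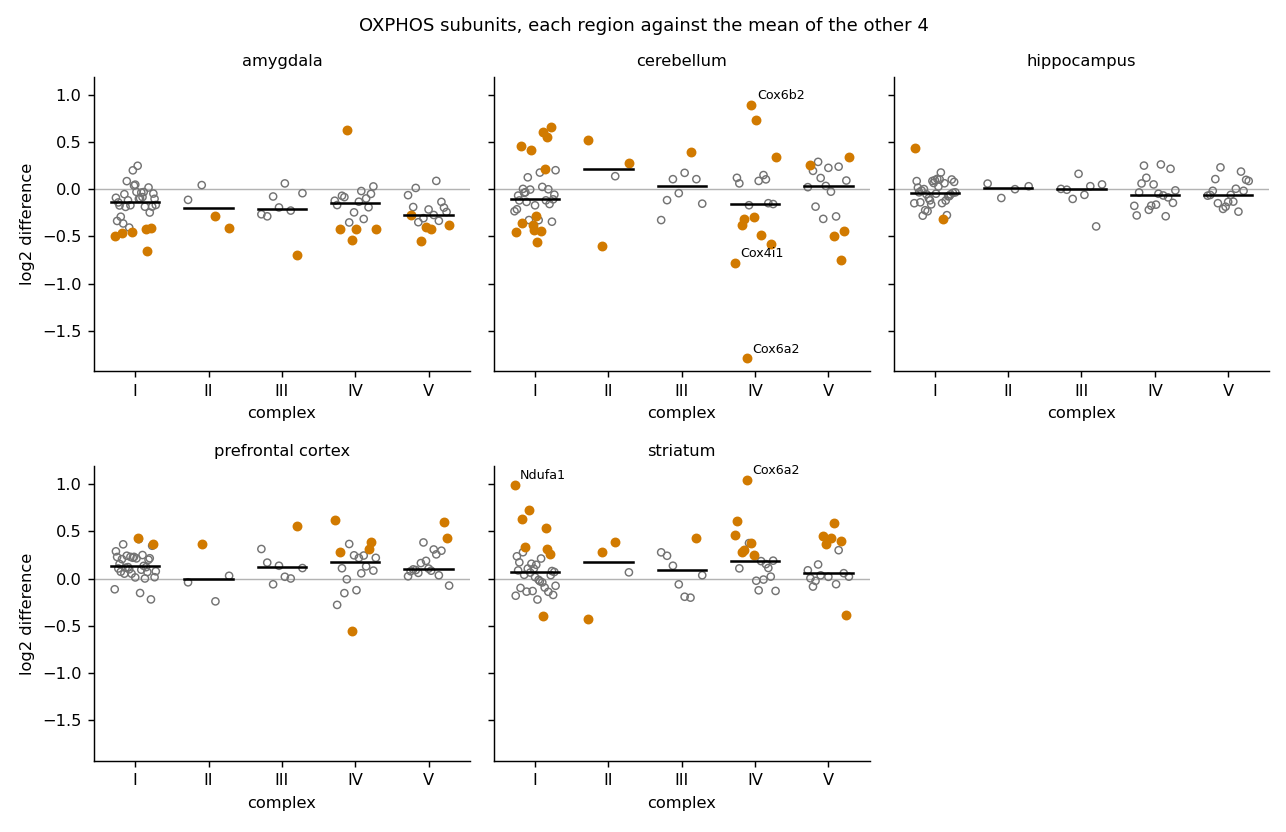
Log2 difference of each of the 82 subunits (points) between the region named above each panel and the mean of the other 4 regions, by complex; filled orange points passed an adjusted p under 0.05, black bars are medians, and genes beyond 0.75 in size are named. In amygdala all filled points but Cox6a2 lie below 0, in striatum 22 of 25 lie above it, and in cerebellum Cox6a2 lies lowest at -1.79.

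The cytosolic ribosomal protein genes, another large set of nuclear genes for abundant proteins, moved with the subunits in some regions and not in others. In striatum 35 of 60 were higher and 1 lower, with a median of 0.43, in prefrontal cortex 6 were higher and 1 lower, and in amygdala 4 were higher and 2 lower, with a median of 0.00. In cerebellum 53 of 60 were lower and 1 higher, with a median of -0.72. Oligodendrocyte markers moved with the subunits in amygdala and striatum (9 of 9 lower and 9 of 9 higher) and against them in prefrontal cortex (9 of 9 lower). The part of either in the differences between regions was not tested. With the ribosomal protein score of each array, centred on its region, as a covariate for the spread within regions, 33 subunits were called in amygdala (32 lower), 24 in prefrontal cortex (23 higher) and 28 in striatum (25 higher). Without the 10 arrays of high foreign marker scores, striatum kept 10 higher and 2 lower calls, and amygdala had 17 lower and 1 higher. Shares of all genes called in these alternative fits are not given, so the changes in count need not be particular to the subunits.

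Complex I takes electrons from NADH through a peripheral arm of flavin and iron-sulphur proteins and a membrane arm. Its 35 subunits had 6 lower calls in amygdala, 6 higher and 7 lower in cerebellum, 1 of each in hippocampus, 2 higher in prefrontal cortex, and 7 higher and 1 lower in striatum. The lower calls in amygdala (17.1% of complex I, against 17.3% of all genes) and the higher calls in striatum (20.0%, against 20.8%) were at the background share, and both cerebellar shares (17.1% higher and 20.0% lower) were below it. Of all genes, 13.8% were higher and 14.1% lower in hippocampus, and 12.7% were higher in prefrontal cortex. Ndufs4, an accessory subunit of the peripheral arm whose loss causes Leigh syndrome, ran from 9.96 through a median of 10.38 to 10.50 in amygdala and from 11.02 through 11.23 to 11.43 in cerebellum. The 8 amygdala and 8 cerebellum arrays did not overlap. Against the other regions Ndufs4 fell in amygdala by 0.65 ± 0.11 (log2, SE; adjusted p = 1e-05) and rose in cerebellum by 0.55 ± 0.11 (adjusted p = 5.3e-05). Ndufs7, an iron-sulphur core subunit next to the quinone site, ran from 12.95 through 13.62 to 13.99 in cerebellum and from 12.06 through 12.70 to 13.11 in amygdala. The pair of ranges overlapped, and the cerebellar difference was 0.65 ± 0.14 (adjusted p = 0.00012).

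Ndufa1, an X-linked membrane subunit, was highest in striatum. Its 8 striatum arrays ran from 8.35 through a median of 9.28 to 10.09, and region means elsewhere lay between 7.95 and 8.26. The striatum range overlapped that of each other region, and the difference was 0.99 ± 0.19 (adjusted p = 2.6e-05). Ndufa3, a small accessory membrane subunit, lay between 14.46 and 14.92 in striatum, above all amygdala arrays (at most 14.19) and all cerebellum arrays (at most 14.33), with a difference of 0.63 ± 0.10. Ndufb10, near the negative-control range, had a striatal difference of 0.73 ± 0.21. Ndufc2, a membrane-arm subunit, went the other way: it was higher in cerebellum (0.61 ± 0.12) and lower in striatum (-0.39 ± 0.12) and hippocampus (-0.32 ± 0.12). The hippocampal call of Ndufc2 lay near the threshold (limma adjusted p = 0.040). Ndufa10 was the only subunit called higher in hippocampus, by 0.44 ± 0.12 (adjusted p = 0.0043), where its arrays lay between 11.89 and 12.24. The core subunits Ndufs1 and Ndufv1, which hold the flavin and the iron-sulphur clusters beside it, had 1 call each, Ndufs1 at 0.22 ± 0.09 in cerebellum and Ndufv1 at 0.37 ± 0.12 in prefrontal cortex, and each was lost under at least 1 alternative.

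Complex II is also the tricarboxylic acid cycle enzyme succinate dehydrogenase. Its catalytic pair, the flavoprotein Sdha and the iron-sulphur protein Sdhb, went in opposite directions in cerebellum. There Sdha ran from 10.68 through a median of 11.32 to 11.49 and Sdhb from 11.70 through 11.76 to 12.01. Sdha was higher than in the other regions by 0.52 ± 0.13 (adjusted p = 0.00046), and Sdhb was lower by 0.60 ± 0.09 (difference -0.60, adjusted p = 4.2e-07). Under every alternative other than a minimum log2 difference of 1, each kept its direction and its call in cerebellum, Sdha between 0.45 and 0.58 and Sdhb between -0.63 and -0.54. In striatum the signs were turned, with Sdha at -0.43 ± 0.13 and Sdhb at 0.28 ± 0.09, but these calls rested on few arrays: Sdha lost its call without Ala striatum 36, the lowest array at 9.35, and Sdhb without Ala striatum 33 or Thr striatum 37. Sdhb was also higher in prefrontal cortex, by 0.37 ± 0.09. The membrane anchors Sdhc and Sdhd were lower in amygdala, by 0.29 ± 0.11 (difference -0.29) and 0.41 ± 0.11 (difference -0.41). Sdhc rose in striatum by 0.39 ± 0.11 and Sdhd rose in cerebellum by 0.28 ± 0.11.

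**Figure D2:**
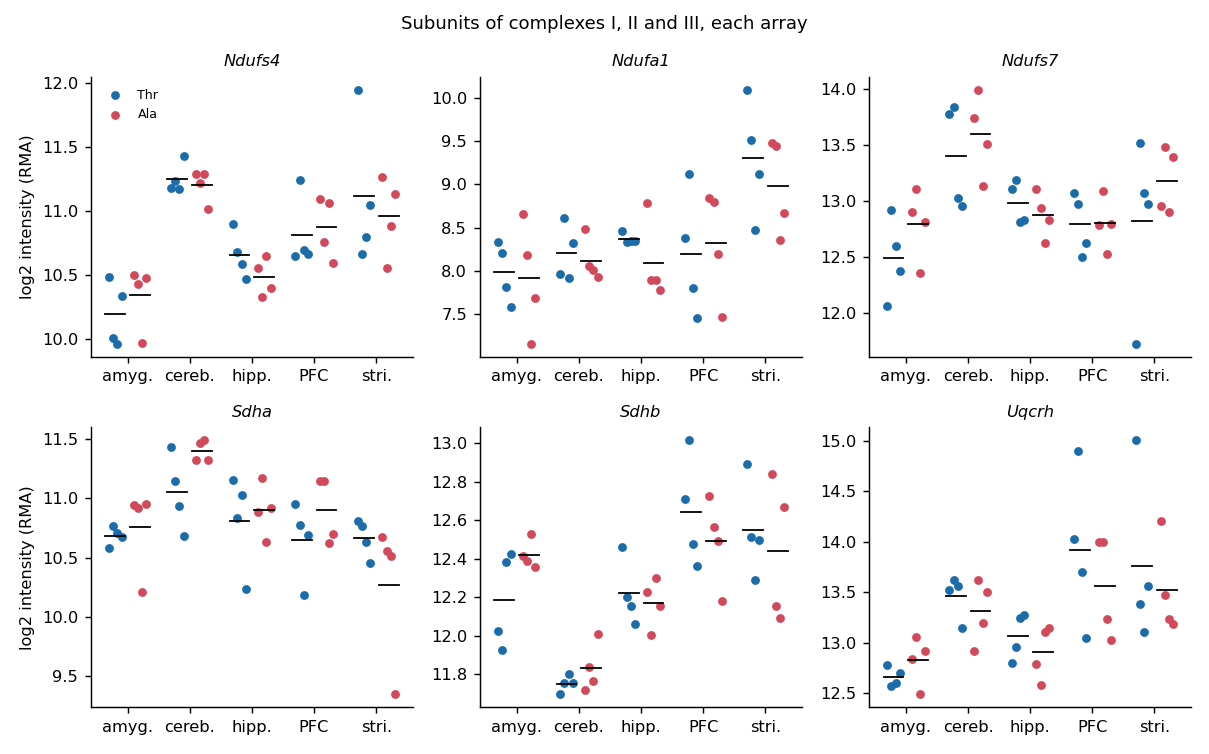
Log2 intensity of 6 subunits of complexes I, II and III on each of the 40 arrays, by region and genotype (blue, Thr; red, Ala; 4 arrays a group; black bars are group means; each panel has its own axis, which does not start at 0). Sdha is highest and Sdhb lowest in cerebellum, and Ndufs4 is lower on all amygdala arrays than on any cerebellum array.

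Of the 8 complex III subunits, a small set, only Uqcrh and Uqcrfs1 were called in any region, where 74.0% of all genes tested were. Uqcrh, the hinge protein that binds cytochrome c1, ran from 12.49 through a median of 12.74 to 13.06 in amygdala and was lower there by 0.70 ± 0.17 (difference -0.70, adjusted p = 0.001). It was higher in prefrontal cortex, by 0.55 ± 0.17, a call that was lost without Thr prefrontal cortex 30, and in striatum, by 0.43 ± 0.17. Uqcrfs1, the Rieske iron-sulphur protein, was higher in cerebellum by 0.40 ± 0.10 (adjusted p = 0.00082). The core protein Uqcrc1 was called in no region. Cycs, the mobile carrier cytochrome c and not itself a member, was higher in cerebellum by 0.36 ± 0.11.

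Complex IV held the largest regional difference of all 82 subunits, that of Cox6a2, the form known from heart and skeletal muscle. Several of the dim isoforms of this complex also differed between regions. Its cerebellum arrays ran from 5.33 through a median of 5.52 to 6.03, at the level of negative-control rows. Its arrays in the other 4 regions lay between 6.40 and 8.46, with medians of 7.51 in amygdala, 6.96 in hippocampus, 7.02 in prefrontal cortex and 7.89 in striatum, so cerebellum did not overlap any of them. The difference was -1.79 ± 0.17 in cerebellum (adjusted p = 4.7e-12), 1.04 ± 0.17 in striatum (adjusted p = 2.2e-06) and 0.63 ± 0.17 in amygdala (adjusted p = 0.0033). The low cerebellar level is part of the reference for striatum and amygdala and enlarges both differences. Region means of Cox6a2 were 7.53 in amygdala, 7.13 in hippocampus, 7.02 in prefrontal cortex, 7.86 in striatum and 5.60 in cerebellum. Cox6a1, its widely expressed counterpart, had region means of 16.74 to 17.23, with differences of -0.31 ± 0.13 in cerebellum and 0.30 ± 0.13 in striatum that were lost under several alternatives. Of the 8 skeletal and heart muscle markers tested, none was called higher in amygdala, 1 was in striatum, and 2 were lower in cerebellum. Of 6 parvalbumin interneuron markers, 2 were higher and 3 lower in cerebellum and 2 higher and 4 lower in striatum.

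Cox7a1 and Cox6b2 had their highest values in cerebellum, where Cox6a2 was lowest. Cox7a1, also known from muscle, ran from 5.65 through a median of 6.25 to 6.82 in cerebellum, against region means of 5.32 to 5.65 elsewhere, a difference of 0.73 ± 0.12 (adjusted p = 2.5e-06). Its counterpart Cox7a2 was called in no region. Cox6b2, known from testis, ran from 4.89 through 5.18 to 5.77 in cerebellum and from 3.77 through 4.10 to 4.37 in prefrontal cortex, without overlap. Its cerebellar difference was 0.89 ± 0.13 (adjusted p = 2.4e-07), and it was lower in amygdala (-0.54 ± 0.13) and prefrontal cortex (-0.55 ± 0.13), although every group mean lay below the negative-control range. No amygdala array (at most 4.54) or prefrontal array (at most 4.37) reached the filter of 4.60, while every cerebellum array did (at least 4.89). Cox6b2 was thus tested only through regions where it was higher, so its regional p-values are not independent of the filter. Like Cox6a2, Cox6b2 was also called higher in striatum (0.37 ± 0.13, limma adjusted p = 0.021). Its counterpart Cox6b1 was called in no region. Cox4i2, known from lung, was higher in striatum by 0.60 ± 0.12, also on dim signal. Its counterpart Cox4i1 was lower in cerebellum (-0.78 ± 0.19, adjusted p = 0.00052) and higher in prefrontal cortex (0.62 ± 0.19), where the call was lost without Thr prefrontal cortex 30. Like Cox4i2, Cox4i1 was also called higher in striatum (0.46 ± 0.19, adjusted p = 0.047), a call lost under several alternatives. Cox7b2 and Cox8c, both known from testis, were called in no region.

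**Figure D3:**
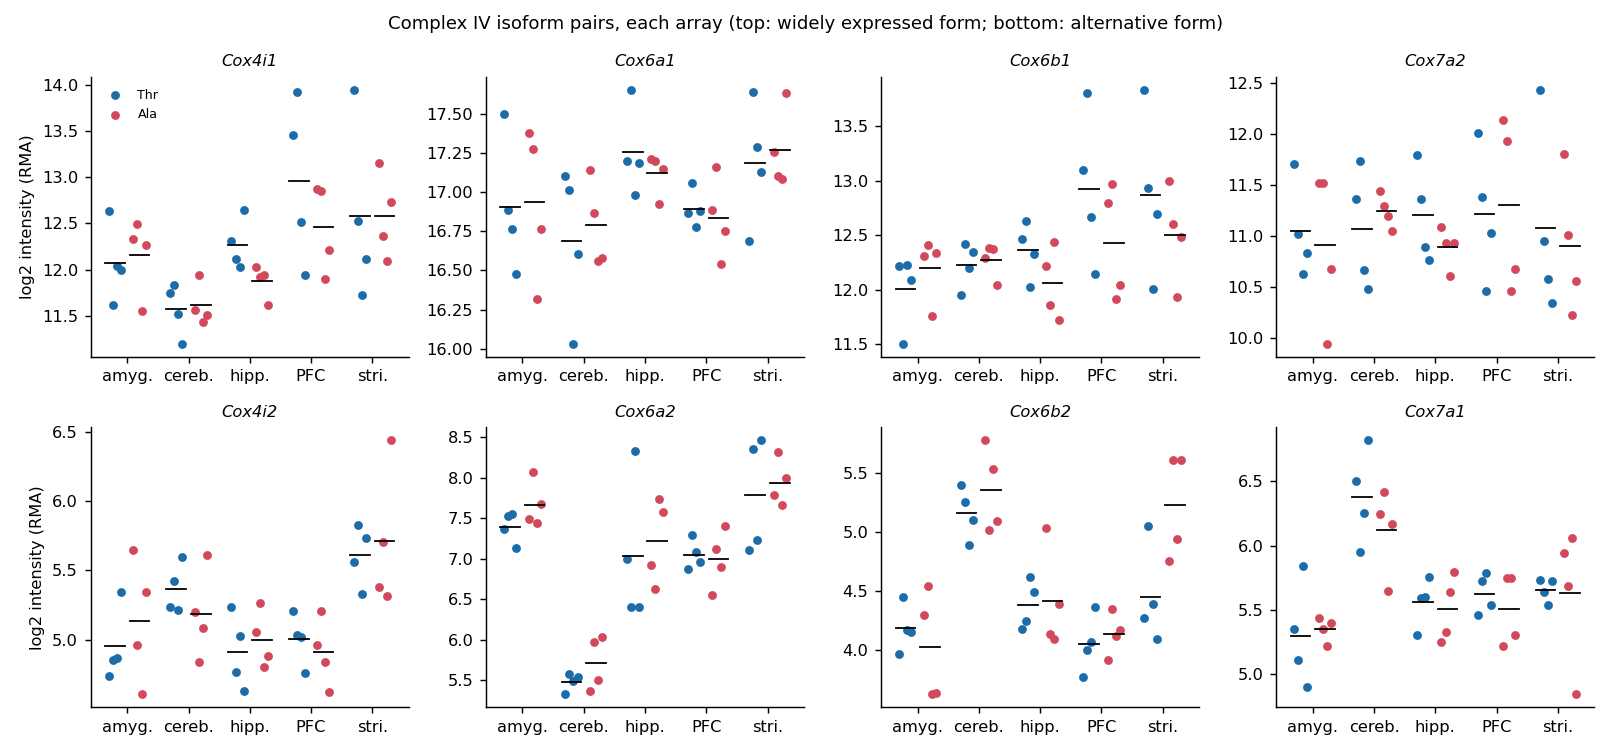
Log2 intensity of 4 isoform pairs of complex IV on each of the 40 arrays, by region and genotype (blue, Thr; red, Ala; 4 arrays a group; black bars are group means; each panel has its own axis, which does not start at 0). Cox6a2 is lower on all 8 cerebellum arrays than on any other array, while Cox6b2 and Cox7a1 have their highest region means in cerebellum.

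Cox8a, the form of its subunit expressed in most tissues, was lower in cerebellum by 0.58 ± 0.09 (difference -0.58, adjusted p = 4.3e-07). Its cerebellum arrays lay between 15.23 and 15.65 and those of hippocampus between 15.86 and 16.39. It was higher in prefrontal cortex by 0.39 ± 0.09. Cox7a2l, which takes part in supercomplex assembly, and the zinc-binding subunit Cox5b were lower in cerebellum by 0.48 ± 0.14 and 0.38 ± 0.11 (differences -0.48 and -0.38). Cox5a was lower in amygdala (-0.42 ± 0.09) and higher in prefrontal cortex (0.28 ± 0.09). Ndufa4, once counted to complex I and now placed in complex IV, was lower in amygdala (-0.42 ± 0.11) and higher in cerebellum (0.34 ± 0.11).

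In complex V, 5 of 17 subunits were lower and none higher in amygdala (29.4% lower, against 17.3% of all genes), and 5 were higher and 1 lower in striatum (29.4% and 5.88%, against 20.8% and 23.2%). In cerebellum 2 were higher and 3 lower (11.8% and 17.6%, against 29.4% and 28.1%). In prefrontal cortex 2 were higher and none lower, where 12.7% of all genes were higher and 13.1% lower. Atp5b, the catalytic beta chain, ran from 16.95 through a median of 17.24 to 17.78 in amygdala and from 17.36 through 17.69 to 17.87 in cerebellum, with differences of -0.27 ± 0.07 and 0.25 ± 0.07. The alpha chain Atp5a1 was called in no region. Atp5g1, a gene of the proton-carrying c ring, was lower in amygdala by 0.55 ± 0.16 (difference -0.55, adjusted p = 0.006), a call lost without the 10 arrays of high foreign marker scores. Atp5md, a small membrane subunit, ran from 14.04 through 14.26 to 14.55 in cerebellum and was lower there by 0.74 ± 0.12 (difference -0.74, adjusted p = 8.3e-07). Its cerebellum arrays lay below every array of hippocampus, prefrontal cortex and striatum. Atp5mpl, another small subunit, was higher in prefrontal cortex by 0.60 ± 0.15 (adjusted p = 0.0021). Atp5o, the stalk protein that confers oligomycin sensitivity, was higher in prefrontal cortex (0.43 ± 0.16) and lower in striatum (-0.38 ± 0.16), and both calls were lost under several alternatives.

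Lists of other mitochondrial genes, of their regulators and of glycolysis are given beside the subunits, without a test of the difference between lists. In cerebellum, where 29.4% of all genes were called higher and 28.1% lower, 10 of 45 assembly factors tested were higher and 14 lower (22.2% and 31.1%), and 13 of 75 mitochondrial ribosomal proteins were higher and 18 lower (17.3% and 24.0%), shares close to those of the subunits (17.1% and 22.0%). In amygdala 2 assembly factors were higher and 8 lower (4.44% and 17.8%), which leaned the same way as the subunits, and in striatum 10 were higher and 6 lower (22.2% and 13.3%). Of 18 tricarboxylic acid cycle genes, 9 were higher and 3 lower in cerebellum (50% and 16.7%) and 3 higher and 9 lower in striatum (16.7% and 50%). Of 15 glycolysis genes, 3 were higher and 8 lower in cerebellum (20.0% and 53.3%). Among 13 regulators of mitochondrial genes, 7 were higher and none lower in cerebellum (53.8% higher), and 6 were lower and none higher in amygdala (46.2% lower, against 17.3% of all genes). Nrf1, the nuclear respiratory factor, was higher in cerebellum by 1.05 ± 0.09, Gabpa by 0.94 ± 0.13, Tfam by 0.41 ± 0.13 and the nuclear receptor Esrrg by 2.67 ± 0.15. The coactivator Ppargc1a was higher in prefrontal cortex (0.70 ± 0.14) and lower in striatum (-0.47 ± 0.14).

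The subunits also varied together between arrays of 1 group. After the group means were removed, the mean Pearson correlation over all pairs of the 82 subunits across the 40 arrays was 0.33, against 0.003 over pairs of all genes tested. The value for all genes is a weak reference, since RMA scales arrays to each other, which takes out shifts shared by all genes. Within other lists the mean ran from 0.05 (tricarboxylic acid cycle) to 0.54 (cytosolic ribosomal proteins). The mean was 0.43 within complex I, 0.40 within complex V, 0.30 within complex III, 0.20 within complex IV and 0.11 within complex II. Over all pairs within a complex it was 0.38, against 0.32 between complexes, but only complexes I and V exceeded the latter. The mean correlation of dim complex IV isoforms with the other subunits ran from -0.07 (Cox7b2) to 0.16 (Cox4i2). That of the brighter complex IV subunits ran from 0.13 (Cox6a1) to 0.51 (Cox6b1). Subunits correlated with cytosolic ribosomal proteins at a mean of 0.40, more than with mitochondrial ribosomal proteins (0.20), assembly factors (0.15), glycolysis (0.15) or tricarboxylic acid cycle genes (0.12). All genes of an array share its RNA and hybridisation, so these values are descriptions. The subunits that moved least with the rest were Sdhc (mean r = -0.16) and Ndufs1 (-0.10). Averaged over its subunits, Thr striatum 37 lay 0.54 above its region mean and Thr prefrontal cortex 30 lay 0.39 above, with ribosomal protein scores of 0.79 and 0.56. Ala striatum 35 lay at -0.35 and Ala prefrontal cortex 28 at -0.32, with ribosomal protein scores of -0.46 and -0.43.

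**Figure D4:**
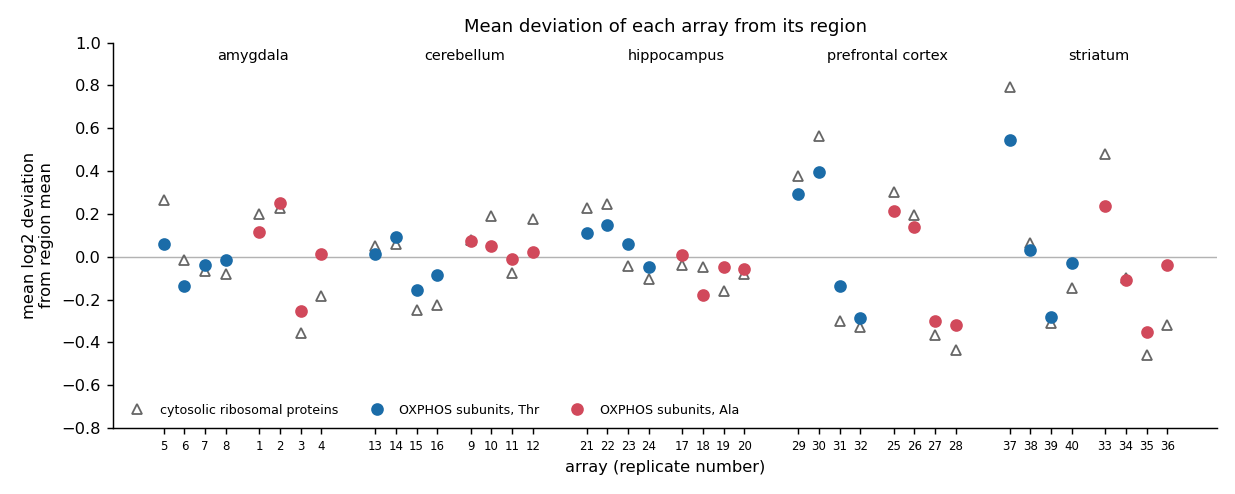
Mean deviation of the 82 tested subunits (filled circles; blue, Thr; red, Ala) and of 60 cytosolic ribosomal proteins (open triangles) from their region mean on each of the 40 arrays, on the log2 scale. The pair of scores moves up and down together, most widely in prefrontal cortex and striatum, where Thr striatum 37 stands at 0.54 and 0.79.

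Nuclear genes of the respiratory chain are known to share promoter sites for NRF1, the ETS factor GABP and YY1. RefSeq promoter windows of GRCm38.p6, from 250 bases before to 50 after the start, were at hand for 69 of the 84 genes (74 promoters). On either strand, the NRF1 core GCGCATGC was in 13.5% of them against 2.71% of all 32851 promoters, the ETS core CCGGAAG in 23.0% against 8.86%, the YY1 core AAGATGGC in 13.5% against 2.75%, and the nuclear receptor site AGGTCA in 21.6% against 16.3%. The NRF1 core overlaps its own reverse strand match where it extends to a palindrome. The median GC content was 57.3% in the subunit promoters and 52.7% in all. Of the YY1 matches 7 were in complex I, 3 in complex V and none in the other complexes. Both the NRF1 and the ETS core were in 5 promoters (6.76%, against 0.520%). These 5 are shown, as the clearest carriers of the shared letters, with the matches in capitals. They are followed by the Cox6b2 promoter, which held none of the first 3 motifs. The Cox6b2 gene had the highest cerebellar difference, on dim signal. All are printed 5′ to 3′ in the direction of the gene.
Sdhb: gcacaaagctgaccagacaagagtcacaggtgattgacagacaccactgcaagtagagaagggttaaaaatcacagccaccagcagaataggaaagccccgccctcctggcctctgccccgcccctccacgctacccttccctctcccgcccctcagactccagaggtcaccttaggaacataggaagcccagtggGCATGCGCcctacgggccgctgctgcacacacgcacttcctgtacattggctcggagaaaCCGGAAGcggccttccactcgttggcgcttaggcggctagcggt
Atp5k: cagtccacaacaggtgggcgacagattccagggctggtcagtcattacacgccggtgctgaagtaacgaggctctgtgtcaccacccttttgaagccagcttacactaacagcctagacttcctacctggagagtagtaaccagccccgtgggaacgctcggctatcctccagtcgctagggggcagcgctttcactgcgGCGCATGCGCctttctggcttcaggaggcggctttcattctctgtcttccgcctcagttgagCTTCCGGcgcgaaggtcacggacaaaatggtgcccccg
Cox6a1: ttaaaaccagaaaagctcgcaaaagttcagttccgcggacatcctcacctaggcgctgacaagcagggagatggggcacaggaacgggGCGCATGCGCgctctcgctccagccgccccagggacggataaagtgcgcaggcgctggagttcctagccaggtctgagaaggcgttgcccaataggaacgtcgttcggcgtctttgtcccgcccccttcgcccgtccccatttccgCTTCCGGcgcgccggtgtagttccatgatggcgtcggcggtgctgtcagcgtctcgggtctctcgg
Atp5l: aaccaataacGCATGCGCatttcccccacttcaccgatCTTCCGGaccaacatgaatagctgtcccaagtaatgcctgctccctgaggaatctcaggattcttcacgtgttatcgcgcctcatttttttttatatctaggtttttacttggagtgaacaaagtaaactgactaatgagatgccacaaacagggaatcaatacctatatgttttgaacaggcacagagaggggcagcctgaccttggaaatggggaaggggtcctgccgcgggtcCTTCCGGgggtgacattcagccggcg
Uqcr11: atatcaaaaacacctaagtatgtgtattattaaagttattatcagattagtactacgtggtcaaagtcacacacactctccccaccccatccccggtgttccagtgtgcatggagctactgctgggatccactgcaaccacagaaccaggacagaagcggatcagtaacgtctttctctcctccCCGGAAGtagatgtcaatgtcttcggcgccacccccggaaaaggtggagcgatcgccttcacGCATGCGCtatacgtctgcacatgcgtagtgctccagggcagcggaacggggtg
Cox6b2: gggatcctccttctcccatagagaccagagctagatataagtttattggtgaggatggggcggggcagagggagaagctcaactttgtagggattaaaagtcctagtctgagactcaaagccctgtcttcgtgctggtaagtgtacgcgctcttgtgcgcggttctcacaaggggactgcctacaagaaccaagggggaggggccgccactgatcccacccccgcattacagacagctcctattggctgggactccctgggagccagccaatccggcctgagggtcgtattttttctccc
The windows are chr4:140961021-140961320 on the plus strand (Sdhb), chr5:108434350-108434649 on the minus strand (Atp5k), chr5:115348909-115349208 on the minus strand (Cox6a1), chr9:44920693-44920992 on the minus strand (Atp5l), chr10:80406772-80407071 on the minus strand (Uqcr11) and chr7:4753045-4753344 on the minus strand (Cox6b2). Counted from the start site, with -1 for the base before it, the NRF1 match began at -54 in Sdhb, at -4 in Uqcr11, at -240 in Atp5l and, as an overlapping pair, at -50 and -48 in Atp5k and at -162 and -160 in Cox6a1.

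Subunits with and without these letters were set side by side. Of the 22 tested subunits with an NRF1 or ETS core, 1 was higher and 5 lower in cerebellum, with a median of -0.15, while of the 46 without, 11 were higher and 8 lower, with a median of 0.01. In striatum 7 of the 22 were higher and none lower, with a median of 0.19, and of the 46 without, 10 were higher and 3 lower, with a median of 0.07. Of all genes tested, 29.4% were higher and 28.1% lower in cerebellum, and 20.8% and 23.2% in striatum. The medians with and without a core were -0.20 and -0.19 in amygdala, -0.002 and -0.04 in hippocampus, and 0.23 and 0.13 in prefrontal cortex. No difference between subunits with and without a core was tested. The mean correlation of a subunit with the others had a median of 0.43 in the 22 and 0.39 in the 46. These are descriptions of the letters in a window and not of binding.

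The comparison of genotypes, which asks how the brain profile of Ala mice differs from that of Thr mice, called no subunit. In amygdala 0 of 82 passed, where 0.12% of all genes were called, and 2 (2.44%) had an unadjusted p under 0.05 in the limma fit, against 5.33% of all genes. In cerebellum, hippocampus and prefrontal cortex, where 0% of all genes were called, 0 of 82 passed. At an unadjusted p under 0.05 there were 0 in cerebellum (1.94% of all genes), 3 in hippocampus (3.66%, against 3.14%) and 5 in prefrontal cortex (6.10%, against 2.33%). In striatum 0 passed (all genes 0.0801%) with 6 at an unadjusted p under 0.05 (7.32%, against 6.14%), and in the average over the 5 regions 0 passed (all genes 0.02%) with 5 (6.10%, against 5.37%). An F-test of whether the genotype difference varies between regions called 0 subunits (all genes 0.0401%), and none had an unadjusted p under 0.05, against 401 of 14978 genes. A p above the threshold does not show that levels were equal.

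The medians over the subunits were small, and whether they differ between regions was not tested beyond the F-test of single subunits. The median Ala minus Thr difference was 0.07 in amygdala and in cerebellum, with 57 of 82 subunits above 0 in each, and -0.14 in hippocampus, -0.12 in prefrontal cortex and -0.11 in striatum, with 19, 22 and 19 above 0. Over the 5 regions it was -0.05, with 23 above 0. The medians of all genes lay between 0.00 and 0.02. The cytosolic ribosomal proteins had medians of -0.08, 0.19, -0.16, -0.13 and -0.22 in the same order of regions. These group medians rest on few arrays: when arrays were left out in turn, the amygdala median ran from -0.003 (without Ala amygdala 2) to 0.17 (without Ala amygdala 3) and the striatum median from -0.24 (without Thr striatum 39) to 0.03 (without Thr striatum 37). The prefrontal median ran from -0.24 (without Thr prefrontal cortex 32) to -0.02 (without Thr prefrontal cortex 30). Without the 10 arrays of high foreign marker scores, the amygdala and striatum medians were -0.09 and -0.36. With the ribosomal protein score as a covariate, the medians of the 5 regions were 0.09, -0.06, -0.05, -0.02 and 0.002.

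**Figure D5:**
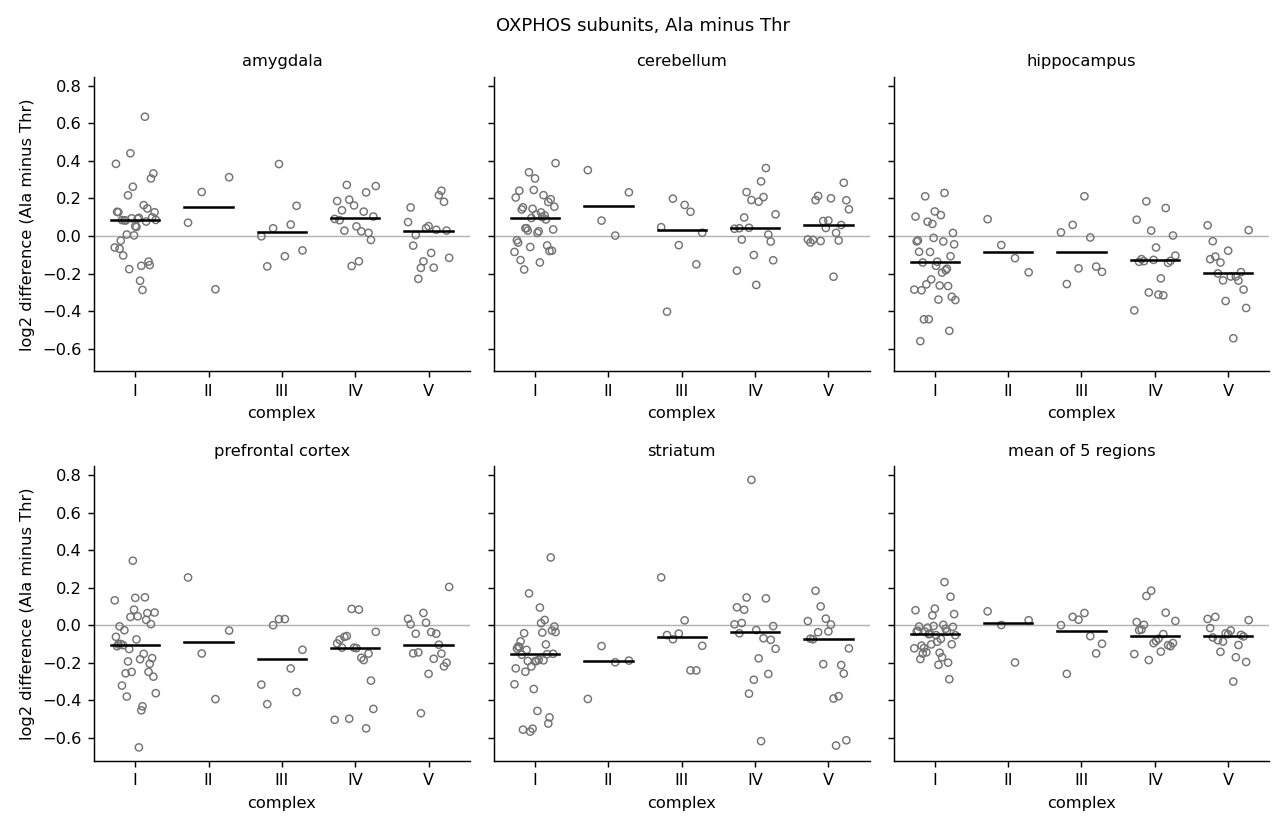
Log2 difference, Ala minus Thr, of each of the 82 subunits (open points) by complex, in each region and averaged over the 5 regions; black bars are medians. No point passed an adjusted p under 0.05; medians lie above 0 in amygdala and cerebellum and below 0 in hippocampus, prefrontal cortex and striatum for each of the 5 complexes.

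The subunit with the smallest p came from complex I in amygdala, cerebellum, hippocampus, prefrontal cortex and the average over regions. Complex I is the largest set, with 35 of the 82 subunits, the average uses the same regional differences, and no subunit was called. In amygdala Ndufs1 was at 11.96, 12.29, 12.27 and 12.40 on the Ala arrays and at 11.62, 11.23, 11.76 and 11.79 on the Thr arrays. The groups did not overlap, and the difference was 0.64 ± 0.17 (limma adjusted p = 0.201). In hippocampus Ndufs6, a zinc-binding accessory subunit, had the smallest p, at 10.63, 9.99, 10.78 and 10.37 on the Ala arrays and at 10.75, 11.03, 11.12 and 10.90 on the Thr arrays. The groups overlapped, and the difference was -0.51 ± 0.19 (limma adjusted p = 1). Next came Ndufa2, at 9.34, 9.56, 9.58 and 9.05 on the Ala arrays and at 9.99, 10.16, 9.85 and 9.76 on the Thr arrays, without overlap, with a difference of -0.56 ± 0.25 (limma adjusted p = 1). Ndufs6 also had the smallest p over the 5 regions, with a difference of -0.29 ± 0.08 (limma adjusted p = 0.585) and a negative difference in each region. In prefrontal cortex Ndufb7 was at 7.92, 7.63, 7.21 and 7.65 on the Ala arrays and at 8.49, 9.24, 7.82 and 7.46 on the Thr arrays, which overlapped, with a difference of -0.65 ± 0.29 (limma adjusted p = 1.00). In striatum Cox6b2 was at 4.75, 5.60, 4.94 and 5.61 on the Ala arrays and at 4.27, 5.05, 4.39 and 4.09 on the Thr arrays, which overlapped and lay on dim signal, with a difference of 0.77 ± 0.24 (limma adjusted p = 0.604).

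The Ala and Thr arrays of a region did not overlap for 3 of 82 subunits in amygdala (3.66%, against 3.19% of all genes tested), for 0 in cerebellum (2.66% of all genes), for 4 in hippocampus (4.88%, against 2.73%), for 2 in prefrontal cortex (2.44%, against 1.66%) and for 0 in striatum (1.98% of all genes). Named after their values were seen, these were Ndufs1, Ndufb11 and Ndufc1 in amygdala, Ndufa2, Ndufa6, Ndufb8 and Atp5o in hippocampus, and Sdhc and Cox7b2 in prefrontal cortex. The difference had the same sign in all 5 regions for 7 of 82 subunits (8.54%), against 7.98% of all genes: Ndufs1 was above 0 throughout, and Ndufa2, Ndufs6, Uqcr11, Cox8a, Atp5c1 and Atp5j2 were below 0 throughout. The other mitochondrial lists had no called gene in any genotype comparison, with at most 4 of 45 assembly factors, 5 of 75 mitochondrial ribosomal proteins and 2 of 18 tricarboxylic acid cycle genes at an unadjusted p under 0.05 in the limma fit.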

How the data were processed

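Total RNA of 5 brain regions was hybridised to 40 Affymetrix arrays, per the labels. The deposited log2 values were made by the authors with RMA, per the submitters' processing notes; the version is not given in the sources used here. This step subtracts background, scales arrays to each other and summarises probes. Symbols came from the platform annotation, and all members matched the GRCm38.p6 gene table. Genes above log2 4.60 (the 30th percentile of all values) on at least 4 arrays were tested. Group means were fitted over all 40 arrays with limma 3.58.1 in R 4.3.3 (lmFit, eBayes with trend, 30 residual degrees of freedom), with Benjamini-Hochberg adjustment over 14978 genes, and all adjusted p-values come from these fits. No minimum fold was used. The fit was tested on simulated data in which genes varied independently and differences were added to the Ala striatum group only. Only the genotype comparison in striatum was checked there. The region comparisons and the shared variation of the subunits were not covered.

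Members and lists (assembly factors, tricarboxylic acid cycle, glycolysis, regulators, both kinds of ribosomal protein, cell type markers) were chosen with earlier results of these data known. Named genes were up to 5 called members per direction and region, the 3 smallest p per genotype comparison, the isoforms of complex IV and the core subunits. A score is the mean of a list on an array after centring on the region. Alternatives changed scaling, the filter, the row per gene, the spread, array weights, thresholds, covariates and the arrays used.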

Additional observations from a re-analysis of the deposited data

Results flagged for a closer look

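In groups of 4 arrays, the gap of the extreme array to its nearest neighbour was set against the range of the group. Of 200 groups of 14 subunits and 6 complex or group scores, 9 had an array standing apart, where chance gives about 10 (5%). Ndufa1 stood apart in both hippocampus groups: Ala hippocampus 17 was at 8.79 with the others at 7.78 to 7.89, and Thr hippocampus 21 at 8.46 with the others at 8.33 to 8.35. Thr hippocampus 21 was also low for Ndufs1, at 11.86 against 12.03 to 12.06. Ala amygdala 3 was low for Ndufs4, at 9.97 against 10.43 to 10.50, and for Sdha, at 10.21 against 10.91 to 10.95. Thr prefrontal cortex 30 was high for Ndufs4, at 11.25 against 10.65 to 10.70. Ala striatum 36, whose choroid plexus score lay 2.77 above its region, was low for Sdha, at 9.35 against 10.51 to 10.67. Thr hippocampus 22 was high for Cox8a, at 16.39 against 16.12 to 16.15, and Thr amygdala 6 was low for Atp5md, at 14.29 against 14.72 to 14.78.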

How the results depend on the processing

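No named subunit reversed its direction past the threshold, and the genotype comparisons called 0 subunits under every alternative run. Medians over the subunits did change sign under some alternatives. Among them were the genotype medians in amygdala, cerebellum and striatum and the regional median in cerebellum. Of 57 called regional differences of named subunits, 37 kept their call under every alternative and leave-one-out fit run other than a minimum log2 difference and 20 lost it at least once, 12 of them without the 10 arrays of high foreign marker scores, a choice made after the data were seen. The hippocampus count of 2 became 1 with no filter on dim genes, 7 with array weights, 6 at an adjusted p under 0.1 and 5 with the ribosomal protein score as a covariate; it was 3 (1 higher, 2 lower) under quantile normalization. The prefrontal count of 11 became 18, 19 and 24 with array weights, at an adjusted p under 0.1 and with the ribosomal protein score, and the amygdala count of 19 became 33 with the ribosomal protein score. The striatum count of 25 became 16 with array weights and 12 without the 10 arrays, where the median genotype difference in striatum was -0.36. Requiring an absolute log2 difference of 1 left 0 subunits in amygdala, 1 in cerebellum, 0 in hippocampus, 0 in prefrontal cortex and 1 in striatum. With single arrays left out, counts ran from 1 to 4 in hippocampus, 6 to 19 in prefrontal cortex and 16 to 26 in striatum. These counts are given without the share of all genes called under the same setting. Their changes need not be particular to the subunits, and the causes were not tested. No paired analysis was possible because each array carries its own replicate number, so no number is shared between groups. Signal close to the negative-control rows limits what can be read from Cox6b2, Cox4i2, Cox7a1 and the cerebellar level of Cox6a2.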
